A study of Saccharomyces cerevisiae with 7 samples.

Results

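The 38 genes described here encode the factors that carry cytosolic translation in Saccharomyces cerevisiae, and they were taken by symbol from a table of nascent RNA that holds 5732 genes. All 38 symbols matched a row, and all 38 passed a filter on low values. By role, 27 act in initiation, 8 in elongation and 3 in termination and ribosome recycling. The study measured RNA attached to RNA polymerase II in strain DPY1283, whose genotype is given as Hsf1-AA with Rpb3-FLAG. Hsf1 is the transcription factor that drives chaperone genes, AA is read here as an anchor-away tag, with which rapamycin tethers the tagged protein outside the nucleus, and Rpb3 is a polymerase subunit that carries the FLAG tag for purification. The 4 conditions, with 1 sample each in the labels, were 39 °C with 1 µM rapamycin, 39 °C without rapamycin, 30 °C with 1 µM rapamycin and the 30 °C control. All 4 share both tags, and a strain lacking the anchor-away tag was not analysed here, so loss of Hsf1 from the nucleus and other effects of rapamycin cannot be told apart. The sources used here do not give the time these cells spent at 39 °C or in rapamycin. A further 3 samples of the series, on Hsf1 binding to DNA, were not analysed here.

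Translation begins when eIF4F, built of the cap-binding protein eIF4E, the scaffold eIF4G and the helicase eIF4A, prepares an mRNA for the small ribosomal subunit, which carries eIF3, eIF1, eIF1A, eIF5 and the initiator tRNA bound to eIF2. The exchange factor eIF2B reloads eIF2 with GTP and is the point at which the stress kinase Gcn2 slows initiation. Elongation is driven by eEF1A, its exchange factor eEF1B, eEF2, eIF5A and, in fungi, eEF3. The release factors eRF1 and eRF3 end synthesis, and the ATPase Rli1 splits the ribosome so that its subunits can be used again. Growing yeast cells transcribe these genes at high rates, together with those for ribosomal proteins.

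Values are the authors' mean normalized read counts, 1 per gene and condition, with no replicate values and therefore no SD and no test of any difference. Log2 ratios were taken after adding 2.851 to both values, which understates the change of low genes, and a gene past 2-fold is one whose log2 ratio on that scale reached 1 (higher) or -1 (lower). Errors given as counting SE cover the counting of reads only. The median log2 ratio over the 4585 genes that passed the filter was 0.0113 for heat without rapamycin, and -0.0006 to 0.0218 in the other 3 comparisons, so higher and lower mean relative to the median gene. HSP82, an Hsp90 gene driven by Hsf1, was lower with rapamycin at both temperatures. It had 123 normalized reads with rapamycin at 39 °C against 3714 without it, and 8.90 with rapamycin at 30 °C against 92.0 without it. Estimated depths ran from 205000 to 794000 reads per averaged library and were lowest at 39 °C with rapamycin, where counting error at a value of 100 was 9.03%, against 6.11% in the 30 °C control.

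**Figure D1:**
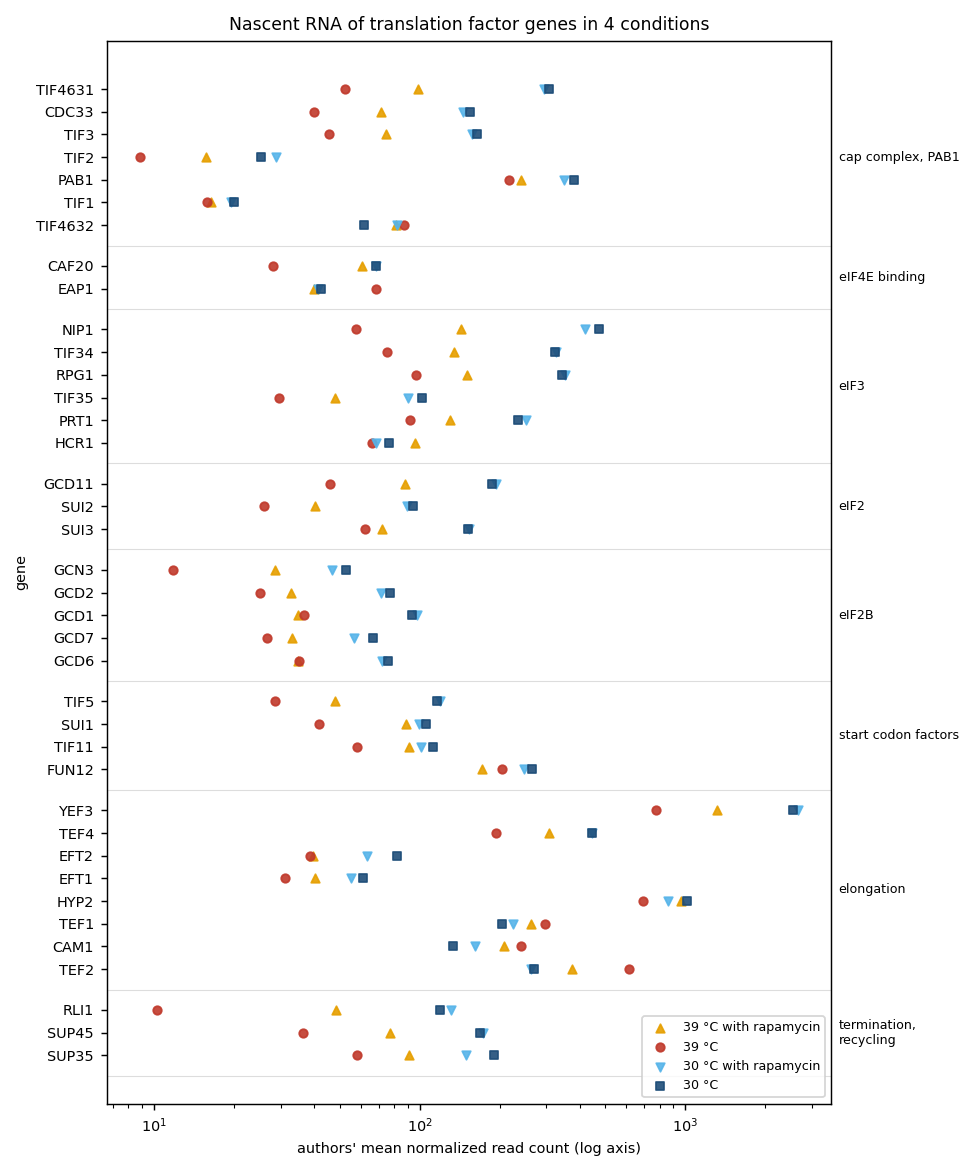
Mean normalized read count (log axis) of each of the 38 genes, 1 point per condition, with genes grouped by role. For most genes the 39 °C point lies farthest left, the 39 °C point with rapamycin lies between it and both 30 °C points, and TEF1, TEF2, CAM1, EAP1 and TIF4632 show the reverse order of 39 °C and 30 °C.

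The first comparison asks how heat shock changes transcription of the translation factors when Hsf1 can act. At 39 °C without rapamycin, 26 of the 38 genes were lower than at 30 °C by more than 2-fold and 1 was higher by more than 2-fold. Over all 4585 genes 17.9% passed 2-fold on the lower side and 16.1% on the higher side. The median log2 ratio of the 38 genes was -1.27, a 2.42-fold difference, and 33 lay below 0. The ratio was farther from 0 than its 95% counting interval for 31 of these 33 genes and for all 5 above 0. Summed over the 38 genes, 1.06% of all normalized reads fell on them at 39 °C against 2.49% at 30 °C. Initiation genes had 20 of 27 members past 2-fold on the lower side, elongation genes 3 of 8, and termination and recycling genes 3 of 3.

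Genes of the cap complex were mostly lower. TIF4631 (YGR162W, chromosome VII, 824059 to 826917, S288C assembly R64), the more highly transcribed of the eIF4G genes at 30 °C, had 52.5 normalized reads at 39 °C against 306 at 30 °C, a log2 ratio of -2.48 with a counting SE of 0.14. CDC33 (YOL139C, XV, 60383 to 61024), the gene of eIF4E, had 40.2 at 39 °C against 155 at 30 °C, a ratio of -1.88 (counting SE 0.17). TIF3 (YPR163C, XVI, 868645 to 869955), the gene of the helicase cofactor eIF4B, had 45.7 against 164, a ratio of -1.78. These 3 genes were between 3.58-fold and 5.84-fold lower before any pseudocount. PAB1, the poly(A)-binding protein gene, was less than 2-fold lower, with 217 at 39 °C against 379 at 30 °C and a ratio of -0.80. TIF1 and TIF2, which both encode eIF4A, had ratios of -0.30 and -1.27, but on low values of 15.8 and 8.84 at 39 °C, against 20.1 and 25.3 at 30 °C. They encode the same protein, and how reads of their shared sequence were counted is not stated in the labels, so their level and split are uncertain. Their sum was 24.6 at 39 °C against 45.4 at 30 °C, a log2 ratio of -0.81.

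The other eIF4G gene, TIF4632 (YGL049C, VII, 406860 to 409604), had 87.7 normalized reads at 39 °C against 61.5 at 30 °C, a log2 ratio of 0.49 with a counting SE of 0.15. Per kilobase of gene, TIF4631 stood at 18.4 normalized reads and TIF4632 at 31.9 at 39 °C, against 107 and 22.4 at 30 °C. The order of the eIF4G genes was thus turned round at 39 °C. The genes of the eIF4E-binding repressors also parted. CAF20 (YOR276W, XV, 841333 to 841818) had 28.1 at 39 °C against 68.5 at 30 °C, a ratio of -1.20 (counting SE 0.20), while EAP1 (YKL204W, XI, 53704 to 55602) had 68.5 at 39 °C against 42.6 at 30 °C, a ratio of 0.65 (counting SE 0.17). CAF20 remained the higher of the pair per kilobase at 39 °C, at 57.8 against 36.1 for EAP1.

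**Figure D2:**
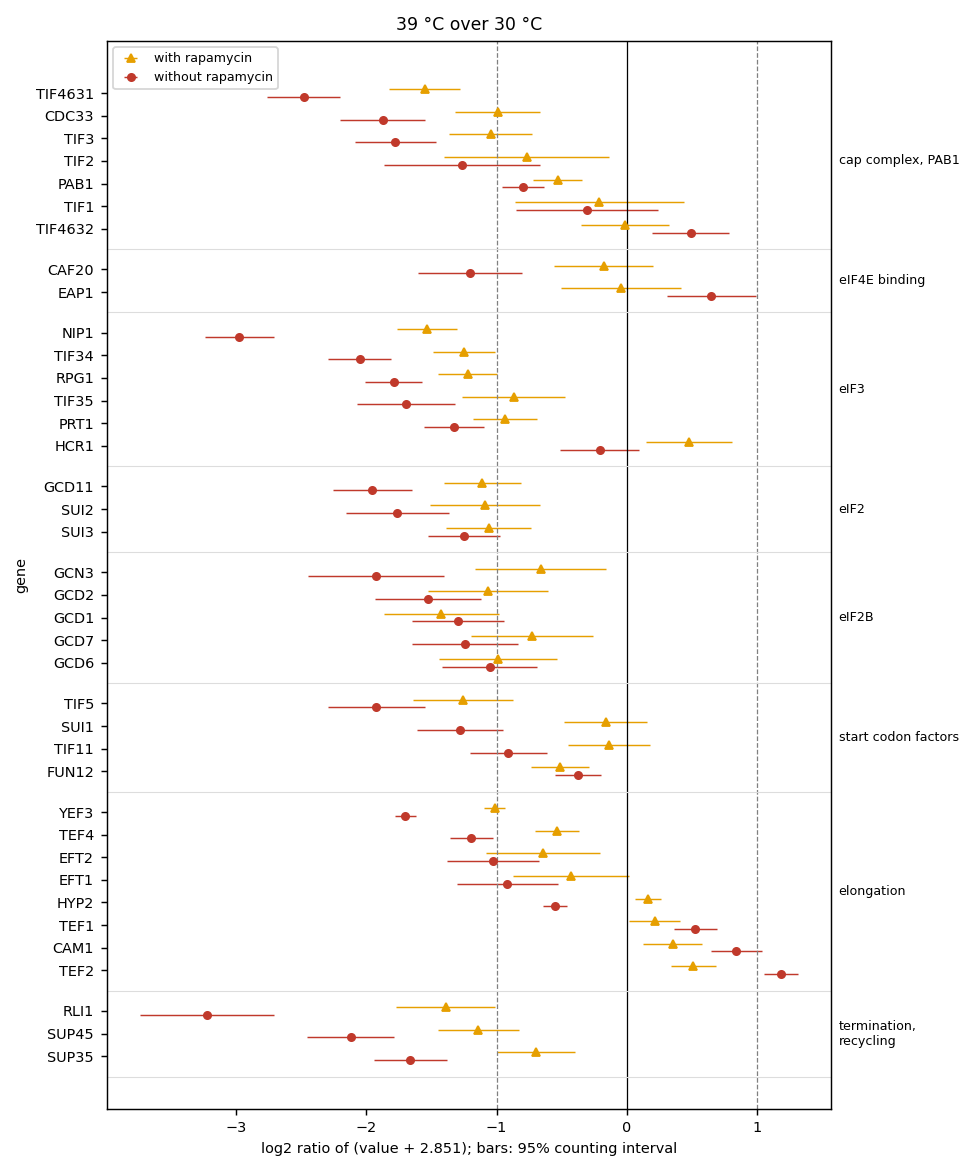
Log2 ratio of 39 °C over 30 °C for each gene, with rapamycin (triangles) and without it (circles), grouped by role. Bars are 95% counting intervals, which hold no biological variation, and dashed lines mark 2-fold. Without rapamycin RLI1 lies farthest left at -3.23 and TEF2 farthest right at 1.19, and with rapamycin the whole range is -1.55 to 0.51.

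The core genes of eIF3, a factor that the small subunit carries, were lower together, while a peripheral one differed little. NIP1 (YMR309C, XIII, 892988 to 895426), the gene of eIF3c, had 57.5 normalized reads at 39 °C against 472 at 30 °C, a log2 ratio of -2.98 with a counting SE of 0.14. It was 8.21-fold lower before any pseudocount and ranked 115th from the lowest of the 4585 genes. TIF34, the gene of eIF3i, had 75.6 against 322, a ratio of -2.05. RPG1, the gene of the largest subunit eIF3a, had 97.1 against 343, a ratio of -1.79. TIF35 and PRT1, for eIF3g and eIF3b, had ratios of -1.70 and -1.33. HCR1 (YLR192C, XII, 538792 to 539589), the gene of the loosely held subunit eIF3j, had 66.3 at 39 °C against 77.0 at 30 °C, a ratio of -0.21 that is within its counting error (SE 0.15). Per kilobase, HCR1 was the lowest eIF3 gene at 30 °C, at 96.5, and the highest at 39 °C, at 83.1, where NIP1 was lowest at 23.6.

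All 8 genes of eIF2 and of its exchange factor eIF2B were past 2-fold on the lower side at 39 °C. GCD11 (YER025W, V, 205251 to 206834), the gene of the GTP-binding eIF2 gamma subunit, had 46.1 normalized reads at 39 °C against 187 at 30 °C, a log2 ratio of -1.95 (counting SE 0.16). SUI2, for the alpha subunit that Gcn2 phosphorylates, had 25.9 against 94.7, a ratio of -1.76, and SUI3, for the beta subunit, had 62.5 against 153, a ratio of -1.25. In eIF2B, GCN3 (YKR026C, XI, 488738 to 489655), the gene of the regulatory alpha subunit, had the lowest ratio at -1.93, with 11.8 at 39 °C against 52.8 at 30 °C and a counting SE of 0.27. GCD2, GCD1, GCD7 and GCD6, for the delta, gamma, beta and catalytic epsilon subunits, had ratios of -1.52, -1.30, -1.24 and -1.05. Per kilobase the 5 eIF2B genes lay close to one another, between 12.8 and 23.2 at 39 °C against 35.5 and 58.4 at 30 °C.

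Among the factors of start codon recognition, TIF5 (YPR041W, XVI, 648704 to 649921), the gene of the GTPase activator eIF5, was the lowest, with 28.7 normalized reads at 39 °C against 117 at 30 °C and a log2 ratio of -1.92 (counting SE 0.19). SUI1, for eIF1, had 41.8 against 106, a ratio of -1.28. TIF11, for eIF1A, had 58.3 against 112, a ratio of -0.91. FUN12, for the subunit-joining GTPase eIF5B, was the least different, with 203 against 264 and a ratio of -0.37.

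Elongation genes went in both directions. TEF2 (YBR118W, II, 477671 to 479047), a gene of eEF1A, had 615 normalized reads at 39 °C against 268 at 30 °C, a log2 ratio of 1.19 with a counting SE of 0.07. It was the only one of the 38 past 2-fold on the higher side. TEF1, which encodes the same protein, had 296 against 205, a ratio of 0.53. As for TIF1 and TIF2, how shared reads were counted is not stated. TEF1 and TEF2 have near-identical sequences, so their level and split are uncertain. Their sum was 911 at 39 °C against 473 at 30 °C, a ratio of 0.94. When all columns were brought to 1 common total, the TEF2 ratio was 0.99 and the TEF1 ratio 0.33, so that the call of TEF2, but not its direction, depends on the scaling.

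The genes of the eEF1B gamma subunit were again opposite. TEF4 (YKL081W, XI, 282891 to 284455) had 193 at 39 °C against 446 at 30 °C, a log2 ratio of -1.19 (counting SE 0.08), whereas CAM1 (YPL048W, XVI, 464401 to 465648) had 241 at 39 °C against 133 at 30 °C, a ratio of 0.84 (counting SE 0.10). Per kilobase, TEF4 was at 124 and CAM1 at 193 at 39 °C, against 285 and 107 at 30 °C. The TEF4 span includes the snoRNA gene SNR38, and whether its reads were counted to TEF4 was not tested. YEF3 (YLR249W, XII, 636780 to 639914), the eEF3 gene, had the highest value of the 38 at 30 °C, and stood at 778 at 39 °C against 2535 at 30 °C, a ratio of -1.70 with a counting SE of 0.04. EFT1 and EFT2, which encode the same eEF2 protein, had low values for their length, 31.1 and 38.7 at 39 °C against 61.2 and 81.8 at 30 °C, and their sum had a ratio of -1.01. As with TEF1 and TEF2, the level and split of EFT1 and EFT2 are uncertain. HYP2 (YEL034W, V, 85676 to 86149), the eIF5A gene, had 692 at 39 °C against 1016 at 30 °C, a ratio of -0.55. YEL034C-A, a row whose systematic name places it at the same locus on the other strand, had 1012 against 1322, so that reads of HYP2 and of that row cannot be told apart without the strand setting, which the labels do not state.

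**Figure D3:**
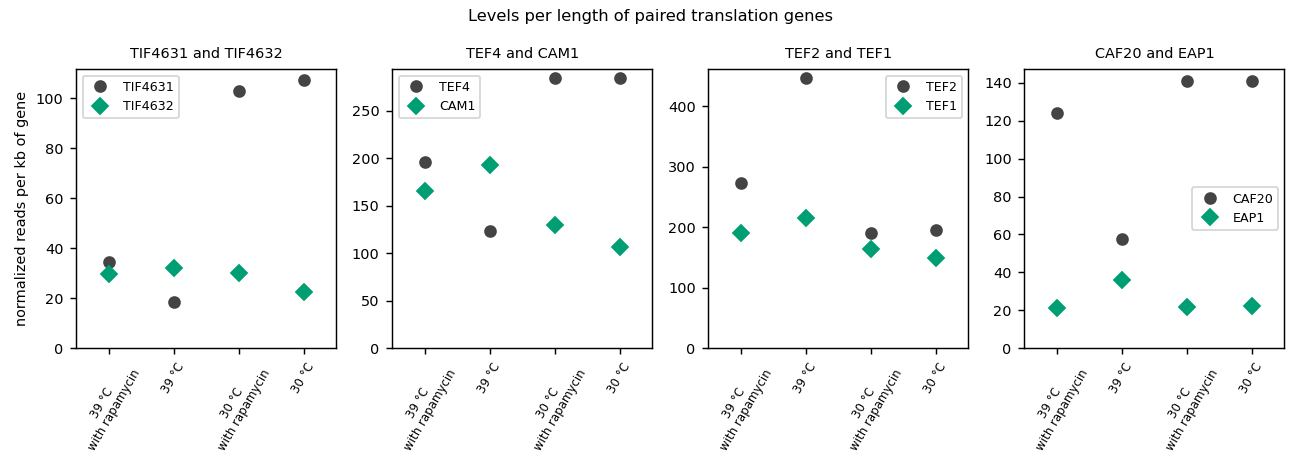
Normalized reads per kilobase of annotated gene for 4 pairs of genes with the same or a related product, 1 point per condition, with the vertical axis from 0. At 39 °C TIF4632 and CAM1 stand above TIF4631 and TEF4, the reverse of both 30 °C conditions, and with rapamycin at 39 °C the members of each of these 2 pairs are close together.

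Termination and recycling genes had the lowest median of the 3 stages, at -2.12. RLI1 (YDR091C, IV, 626708 to 628534), the gene of the recycling ATPase, had 10.2 normalized reads at 39 °C against 119.7 at 30 °C. Its log2 ratio of -3.23 (counting SE 0.26) was the lowest of the 38 genes and ranked 90th from the lowest of 4585, and before any pseudocount it was 11.7-fold lower. SUP45 (YBR143C, II, 530869 to 532182), the eRF1 gene, had 36.5 against 168, a ratio of -2.12 (counting SE 0.17). SUP35 (YDR172W, IV, 808324 to 810381), the eRF3 gene, had 58.2 against 190.3, a ratio of -1.66 (counting SE 0.14).

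The second comparison asks whether rapamycin, and with it the loss of nuclear Hsf1, touches these genes at 30 °C. None of the 38 passed 2-fold in either direction, where 0.371% of all genes did so on the lower side and 0.0436% on the higher side. Their median log2 ratio was -0.05, and for 31 of the 38 the ratio was within the 95% counting interval of 0. The 4 widest members were TIF4632, with 82.1 normalized reads with rapamycin against 61.5 without it and a ratio of 0.40 (counting SE 0.15), EFT2 at -0.35, with 63.4 against 81.8, SUP35 at -0.34, with 149.8 against 190.3, and CAM1 at 0.27, with 161 against 133. The sum of EFT1 and EFT2, whose level and split are uncertain, had a ratio of -0.27. The other members outside the 95% counting interval of 0 were HYP2 at -0.24 (counting SE 0.04), NIP1 at -0.17 (counting SE 0.06) and YEF3. YEF3 had a ratio of 0.07 (counting SE 0.03), at 2661 with rapamycin against 2535 without it.

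The third comparison asks what rapamycin changes at 39 °C. With rapamycin, 6 of the 38 genes passed 2-fold on the higher side and none on the lower side. Over all genes these shares were 5.37% on the higher side and 2.88% on the lower side. The median log2 ratio of the 38 was 0.60, and 30 of them lay above 0, of which 22 by more than counting error. RLI1 stood at 48.4 normalized reads when rapamycin was present and at 10.2 without rapamycin. Its ratio of 1.97 (counting SE 0.31) was the 4th highest of all 4585 genes. NIP1, at 142.5 with rapamycin against 57.5 without it, had a ratio of 1.27 (counting SE 0.17). GCN3 had 28.5 against 11.8, a ratio of 1.10 with a wide counting SE of 0.33. SUI1 had 88.8 against 41.8, a ratio of 1.04, CAF20 had 60.4 against 28.1, a ratio of 1.03, and SUP45 had 77.2 against 36.5, a ratio of 1.03. The 39 °C values without rapamycin enter both this comparison and the first one, so the members' ratios in the 2 comparisons are not independent.

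Within complexes the rapamycin ratio at 39 °C varied. All 6 eIF3 genes were above 0, from 0.48 for PRT1 to 1.27 for NIP1. In eIF2B, GCN3 was followed by GCD2 at 0.35, GCD7 at 0.28, GCD6 at -0.01 and GCD1 at -0.07, whose counting intervals all reach 0. With counting SE of 0.33 for GCN3 and 0.28 for both GCD2 and GCD7, GCN3 did not differ from GCD2 or GCD7 beyond counting error. GCD1 had 34.7 normalized reads with rapamycin against 36.6 without it, and GCD6 had 34.8 against 35.1. In eIF2, GCD11 was at 0.90 and SUI2 at 0.59, while SUI3 was at 0.20. Of the elongation genes YEF3, with 1317 against 778 and a ratio of 0.76, and TEF4, at 0.66, were highest. EFT1 at 0.34 and EFT2 at 0.03 were within counting error of 0.

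Genes that were higher at 39 °C without rapamycin were lower or little different with it. EAP1 had 40.2 normalized reads with rapamycin at 39 °C against 68.5 without it, a log2 ratio of -0.73 (counting SE 0.23). TEF2 had 376 against 615, a ratio of -0.71 (counting SE 0.08). CAM1 at -0.22, TEF1 at -0.18 and TIF4632 at -0.11 were nearer to 0, the last 2 within counting error. FUN12, which was lower at 39 °C without rapamycin, was also lower with it, at -0.24 (counting SE 0.12), at the edge of its counting interval. Rescaled to equal totals, which puts the median gene of this comparison at 0.13, TIF4632 turned to 0.01, GCD6 to 0.11 and GCD1 to 0.05. On that scale FUN12 at -0.11 and CAM1 at -0.095 were within counting error, while EAP1 at -0.61 and TEF2 at -0.58 were not.

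**Figure D4:**
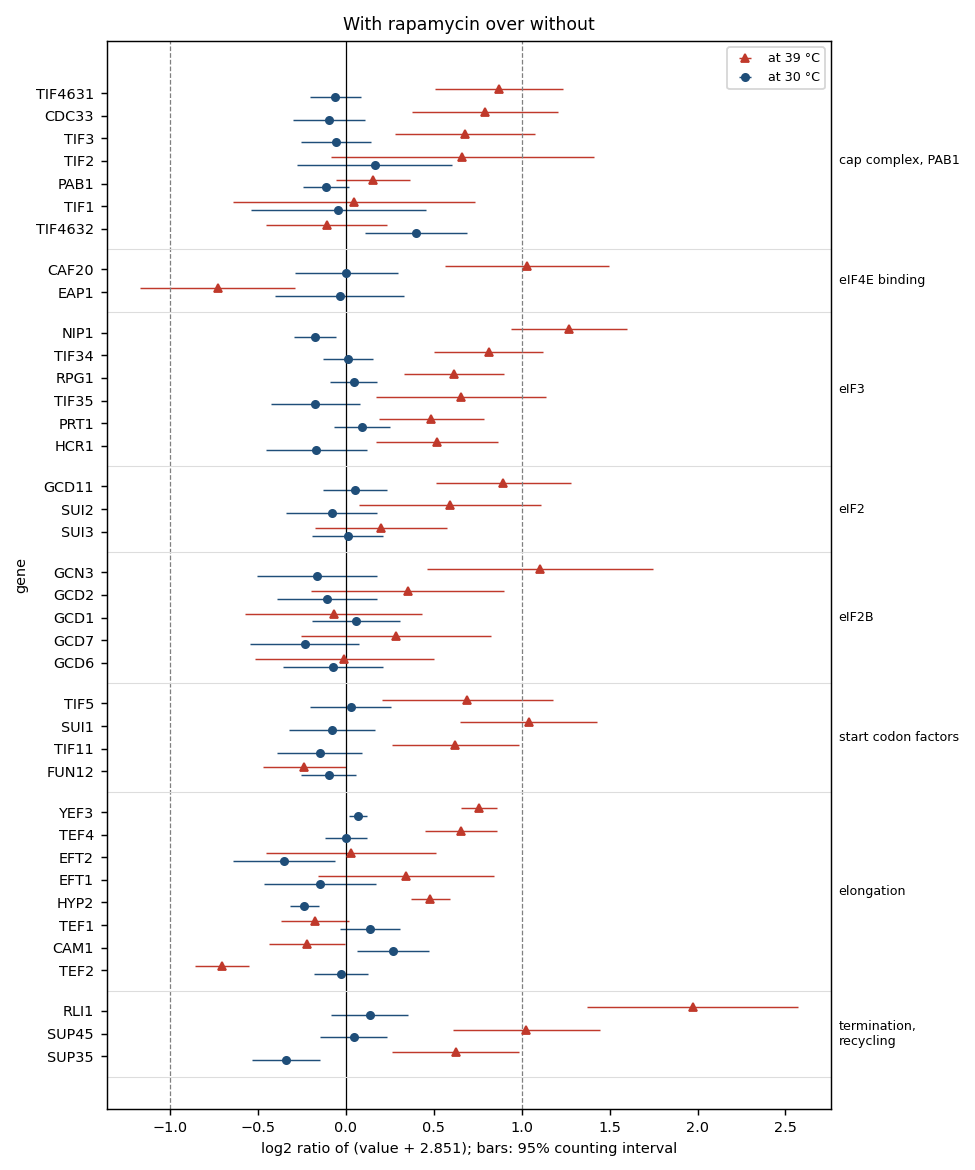
Log2 ratio of the value with rapamycin over the value without it for each gene, at 39 °C (triangles) and at 30 °C (circles). Bars are 95% counting intervals and dashed lines mark 2-fold. The 30 °C points lie between -0.35 and 0.40, and the 39 °C points run from -0.73 for EAP1 to 1.97 for RLI1.

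The difference of the rapamycin ratios, 39 °C minus 30 °C, equals the difference of the heat ratios with and without rapamycin. It was above 0 for 31 of the 38 genes, with a median of 0.66, against 0.0119 over all 4585 genes. It was widest for RLI1 at 1.84 (counting SE 0.33), NIP1 at 1.44, GCN3 at 1.27, SUI1 at 1.12 and CAF20 at 1.03. It was lowest for EAP1 at -0.70, TEF2 at -0.68, TIF4632 at -0.51 and CAM1 at -0.49. The difference has no replicate values and was not tested.

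The fourth comparison asks how the genes respond to heat once rapamycin is present. At 39 °C with rapamycin, 14 of the 38 genes were lower than at 30 °C with rapamycin by more than 2-fold and none was higher by as much. Over all genes 12.8% passed 2-fold on the lower side and 12.3% on the higher side. The median log2 ratio was -0.75, and 33 genes were below 0. The 14 genes were TIF4631 and TIF3 of the cap complex, NIP1, TIF34 and RPG1 of eIF3, all 3 eIF2 genes, GCD1 and GCD2 of eIF2B, TIF5, YEF3, RLI1 and SUP45. TIF4631 had 98.3 normalized reads at 39 °C against 294 at 30 °C, a ratio of -1.55 (counting SE 0.14), the lowest of the 38. NIP1 had 142.5 against 418, a ratio of -1.53. GCD1 had 34.7 against 98.0, a ratio of -1.42, RLI1 had 48.4 against 132, a ratio of -1.39, and TIF5 had 48.0 against 119, a ratio of -1.26. TIF34 at -1.25, RPG1 at -1.22, SUP45 at -1.14, GCD11 at -1.11, SUI2 at -1.09, GCD2 at -1.06, SUI3 at -1.06, TIF3 at -1.05 and YEF3 at -1.01 were closer to the 2-fold line.

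Other genes were near their 30 °C level in the presence of rapamycin. CAF20 had 60.4 at 39 °C against 68.6 at 30 °C, SUI1 had 88.8 against 99.6, and TIF11 had 91.4 against 100.7, with log2 ratios of -0.18, -0.16 and -0.14. EAP1 had 40.2 against 41.5 and TIF4632 had 81.1 against 82.1, ratios of -0.04 and -0.02. The 5 genes above 0 were TEF2 at 0.51, HCR1 at 0.48, CAM1 at 0.35, TEF1 at 0.22 and HYP2 at 0.16. TEF2 had 376 against 263, and HCR1 had 96.3 against 68.2.

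The same heat ratios were read in other genes of protein synthesis, with genes under the low-value filter included in these lists, while the shares over all genes, 17.9% on the lower side and 16.1% on the higher side, cover genes that passed it. Of 24 measured further genes of cytosolic translation and its control, 7 passed 2-fold on the lower side and 2 on the higher side at 39 °C without rapamycin, with a median log2 ratio of -0.49. Of the 7 lower genes, 1 is also in the list of ribosome biogenesis genes given below. TPA1, a dioxygenase gene linked to termination, was at -2.64 with 17.8 normalized reads at 39 °C against 125 at 30 °C. NEW1, a relative of YEF3 that acts in termination, was at -2.44 with 40.7 against 233. HEF3, the paralog of YEF3, was at 1.44 with 22.8 against 6.58, but it is under the filter, and without it and DBP1, which is also under it, 1 of 22 genes was past 2-fold on the higher side. EFB1 (YAL003W, I, 142174 to 143160), the eEF1B alpha subunit gene, was at 1.10 with 1196 against 558, and its rapamycin ratio at 39 °C was -1.62, with 386 against 1196. The Hsp70 gene SSA1 (YAL005C, I, 139503 to 141431), an Hsf1 target, is divergent from EFB1 and had 136 with rapamycin at 39 °C against 1886 without it. The part of SSA1 in the EFB1 values was not tested. As counted, the eEF1B genes CAM1 and EFB1 were higher at 39 °C and TEF4 lower. The rapamycin ratio of CAM1 at 39 °C was -0.22, against -1.62 for EFB1.

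Mitochondrial translation factors, 12 genes, had 3 members past 2-fold on the higher side and none on the lower side, with a median of 0.71. GUF1, RRF1 and CBS1 of this list are under the filter, and of the 9 genes that passed it 2 were past 2-fold on the higher side, near the share over all genes. MEF2, a mitochondrial elongation factor G gene, led them with 75.7 at 39 °C against 16.9 at 30 °C, a ratio of 1.99, and AIM23, the mitochondrial initiation factor 3 gene, was at 1.23. Cytosolic tRNA synthetase genes, in a list that also holds the cofactor gene ARC1, had 10 of 22 past 2-fold on the lower side and a median of -0.88. Ribosomal protein genes had 108 of 134 past it on that side and a median of -1.46, and ribosome biogenesis genes had 60 of 60 and a median of -3.39. With rapamycin present, the medians for heat were -0.75 for the translation factors, -0.51 for the synthetase list, -0.33 for the ribosomal protein genes and -2.29 for the biogenesis genes. For rapamycin at 39 °C the medians in the same order were 0.60, 0.38, 1.03 and 0.91. No test of the difference between lists was made.

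**Figure D5:**
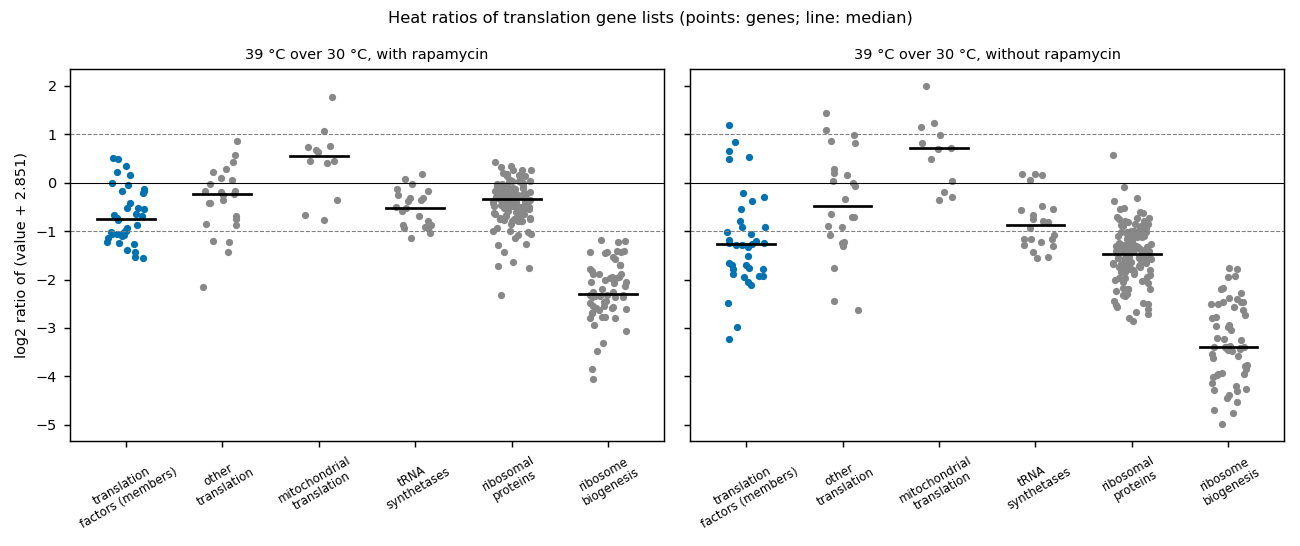
Log2 ratio of 39 °C over 30 °C for each gene (points) of 6 lists of protein synthesis genes, with rapamycin (left) and without it (right), and the list median (line). Without rapamycin the translation factors have a median of -1.27, mitochondrial translation genes 0.71 and ribosome biogenesis genes -3.39, and dashed lines mark 2-fold.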

How the data were processed

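The deposited values are normalized read counts (a signal) that the authors averaged into 1 column per condition, per the file headers. Reads were counted with HTSeq on build sacCer3, per the submitters' processing notes. The sources used here do not give the aligner, the strand setting, the treatment of reads with several matches, the scaling or the number of libraries averaged. Columns were matched to conditions by their header abbreviations. Distinct values under 6 all fell on sums of 2 steps per column (tolerance 0.0055, which covers 5.29% to 27.4% of that range), so a column was taken to average 2 libraries. This was assumed for the depths and the counting SE, and reads are not independent molecules.

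The pseudocount was 0.1 of the median value. The filter kept 4585 of 5732 genes with a mean at or above the 20th percentile, 14.442. Gene positions and lengths come from RefSeq (assembly R64), in which all 38 members matched. Scripts used Python 3.11.15, numpy 2.4.6 and pandas 2.3.3, and were tested on simulated data. Members, gene lists and settings were chosen with earlier results of these data known. Members given with all their values were the 12 widest and those against their group's sign for heat without rapamycin, and elsewhere those past 2-fold, or the 4 widest if fewer. Further members and the paired genes were described after their values were seen. From the other lists, at most 4 genes past 2-fold were named each. The plan was to name the widest, but EFB1, at 1.10 for heat without rapamycin, was not among the 4 widest of its list. Alternatives were 2 other pseudocounts, 2 scalings, 2 filters and the summing of near-identical pairs. A motif search in promoters was planned and not made, since no sequences were used here.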

Additional observations from a re-analysis of the deposited data

How the results depend on the processing

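Each column has 1 value per condition and low values limit precision most, as for TIF1, TIF2, GCN3 and RLI1 at 39 °C. No paired analysis was possible because each condition has 1 sample and its libraries are averaged. The direction of each median over the 38 genes held under every alternative run. The filter at the 20th percentile removed none of the 38, and the factors of the scaling by median ratios lay between 1.0091 and 1.0125. These alternatives could therefore change little. The median for rapamycin at 30 °C, -0.05 with a counting SE of 0.0255, was small in every case. With all columns brought to 1 common total, which moves the median of all genes for heat without rapamycin to -0.17, the member medians were -1.45 for heat without rapamycin, 0.72 for rapamycin at 39 °C and -0.85 for heat with rapamycin, and the count of members past 2-fold on the higher side with heat was 0, since TEF2 was at 0.99. When 0.5 of the median was added to the values, these medians were -1.11, 0.47 and -0.61, the median difference of rapamycin ratios was 0.52, and 2 members in place of 6 passed 2-fold on the higher side with rapamycin at 39 °C, as CAF20, GCN3, SUI1 and SUP45 were below the line. With that larger pseudocount, TIF2, CAF20, GCD7, GCD6 and EFT2 also missed the 2-fold line on the lower side for heat without rapamycin. TIF3, SUI2, SUI3 and GCD2 missed it for heat with rapamycin. When 0.01 of the median was added, the median for heat without rapamycin was -1.34. With near-identical pairs summed, 0 members passed 2-fold on the higher side with heat, and the median for heat with rapamycin was -0.87.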

Other observations

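The 38 genes lie on 12 chromosomes. Of the 34 measured protein-coding genes next upstream of a member, 8 passed 2-fold on the higher side and 5 on the lower side at 39 °C without rapamycin, with a median log2 ratio of 0.16. These are 23.5% and 14.7% of the 34, near the shares over all genes, 16.1% and 17.9%. Neighbours under the low-value filter are among the 34, while the shares over all genes cover genes that passed it. SUP35 lies 575 bp downstream of HSP42, a small heat shock protein gene on the same strand. HSP42 had 2716 normalized reads at 39 °C against 22.6 at 30 °C, a ratio of 6.74, while SUP35 had a ratio of -1.66. SUI3 lies 409 bp downstream of YAR1, a gene on the same strand whose product is an ankyrin-repeat protein linked to small-subunit export. YAR1 had 301 at 39 °C against 37.7 at 30 °C, and 16.3 with rapamycin at 39 °C against 301 without it, while SUI3 had 72.2 with rapamycin at 39 °C against 62.5 without it. HSP82 (XVI, 96496 to 98625) lies on the far side of YAR1 from SUI3 and had a ratio of 5.29 for heat without rapamycin. The part of HSP82 in the YAR1 values was not tested. TIF11 lies 365 bp downstream of TPS3, a trehalose synthase subunit gene on the same strand, which had 330 at 39 °C against 44.8 at 30 °C, where TIF11 had 58.3 against 112. Other neighbours had ratios of the same sign as their member. UPA2, 289 bp upstream of NIP1 on the same strand, had 1.76 at 39 °C against 33.1 at 30 °C, a ratio of -2.96. NIP1 had nearly the same ratio, -2.98. Before the pseudocount UPA2 was 18.7-fold lower and NIP1 8.21-fold lower, but the UPA2 fold rests on a low value at 39 °C. LDO45, 674 bp upstream of TIF34 on the opposite strand, had 3.29 at 39 °C against 13.2 at 30 °C, a ratio of -1.39, but it is under the low-value filter. TKL2, 1233 bp upstream of TEF2 on the opposite strand, had 173 at 39 °C against 7.33 at 30 °C, a ratio of 4.11. These neighbours were picked after their values were seen.

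Rows with no RefSeq entry carried reads beside some members. YPL238C, numbered next to SUI3, had 33.8 normalized reads at 39 °C against 98.5 at 30 °C, and YOR277C, numbered next to CAF20, had 15.1 against 31.0. Whether these rows share reads with SUI3 and CAF20 was not tested.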
